A study of Drosophila melanogaster with 10 samples.

Results

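The dfoxo/+ and atf3[A]/+ genotypes are larvae of one Atf3 mutant line that differ in what they carry in 1 copy on the third chromosome, and their transcriptomes were compared directly. Libraries were taken by their labels: 2 of dfoxo/+ and 2 of atf3[A]/+, which are 4 of the 10 libraries of the series. The comparison itself was chosen with earlier results of these data known. RNA-seq was made from whole male Drosophila melanogaster larvae of the third instar, raised at 25 °C. Labels write the genotypes as y w, atf3[76];;dfoxo[25J13]/+ for dfoxo/+, y w, atf3[76];;atf3[A]/+ for atf3[A]/+, y w, atf3[76];;rel[E20]/+ for rel/+ and y w, atf3[76] for the mutant alone. All of them therefore share the y and w markers and the atf3[76] allele, and dfoxo/+ and atf3[A]/+ differ from each other by both third-chromosome items at once. What lesion each allele has, what atf3[A] is, how many larvae went into a library and whether these came from separate cultures are not stated on the labels. The rel/+ and atf3[76] libraries, 2 of each, served to estimate the spread and to show where other genotypes with the same mutant chromosome lie. Control y w libraries were left out of this comparison and entered only 1 alternative fit.

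Atf3 is a transcription factor of the basic leucine zipper family, related to the AP-1 and CREB proteins, which acts in stress, immune and metabolic control in flies and mammals. FOXO is a forkhead factor that is held back and kept out of the nucleus by insulin signalling and that turns on genes for growth restraint and stress resistance. Rel encodes Relish, an NF-kB protein through which the Imd pathway answers bacteria. In the larval gut and fat body these pathways bear on digestive enzymes, antimicrobial peptides and peptidoglycan recognition proteins. The sources do not state a question for this particular pair of genotypes.

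Expression is given as FPKM, fragments scaled by transcript length and by the number of mapped fragments, with a lowest deposited value of 1 in every library. A value of 1 is thus a floor, and a gene listed at 1 in both libraries of a genotype gets no fold change here. Of 13995 genes, 11524 were above 1 in at least 1 of the 8 libraries and were tested with limma on log2(FPKM + 1), with p-values adjusted over all of them. Read depth is not known from FPKM. Median FPKM over all 13995 genes was 6.88 and 5.70 in the dfoxo/+ libraries and 5.49 and 3.86 in the atf3[A]/+ libraries. Across genes, the replicate libraries correlated with a Pearson r of 0.960 in dfoxo/+, 0.951 in atf3[A]/+, 0.959 in rel/+ and 0.913 in atf3[76]. Replicate 1 of atf3[76] stood apart, with 4.89% of genes that were high elsewhere listed at 1, against 0.240% to 1.11% in the other 7 of the 8. Some genes used by most cells were listed at 1 in single libraries, such as the ferritin subunit Fer1HCH at 1 in atf3[76] replicate 1 and at 216 FPKM in replicate 2, so a value of 1 need not mean that a transcript was absent.

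At an adjusted p of 0.05, 20 genes differed between dfoxo/+ and atf3[A]/+, which is 0.174% of those tested. Of these, 11 were higher in dfoxo/+ (0.0955% of genes tested) and 9 were lower (0.0781%). The largest differences among the 7 genes that were above 1 in both genotypes were those of 3 digestive lysozymes, all far higher in dfoxo/+. The remaining 13 were listed at 1 in both libraries of a genotype, 8 of them in dfoxo/+ and 5 in atf3[A]/+. Of these, 6 (CG8136, CG42823, w, Sep4, CG9465 and snoRNA:Me28S-U1230) were listed at 1 in all 6 libraries of the other genotypes. They entered the test only through the genotype where they were high, and their spread comes from its 2 libraries alone, so their p-values are given as a description and not as support. Without adjustment 1952 genes had p under 0.05, 1807 of them higher in dfoxo/+ (15.7%) and 145 lower (1.26%). Both dfoxo/+ libraries lay above both atf3[A]/+ libraries in 46.5% of genes tested and below both in 4.26%, and the median log2 fold change of all genes was 0.23. That overall shift depended on scaling and on single libraries. For scaling, centring each library on its median moved it to -0.10 and quantile normalization to -0.03. The split of calls, 11 higher and 9 lower, was then 11 higher and 18 lower with centring and 14 higher and 16 lower with quantile normalization. Leaving out single libraries moved both further. Without dfoxo/+ replicate 1 there were 9 higher and 7 lower at a median of 0.19, and without dfoxo/+ replicate 2 there were 23 higher and 3 lower at a median of 0.32. Without atf3[A]/+ replicate 1 there were 8 higher and 11 lower at a median of 0.37, and without atf3[A]/+ replicate 2 there were 6 higher and 20 lower at a median of 0.12. Changes smaller than the shift are therefore not read as a direction below.

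**Figure D1:**
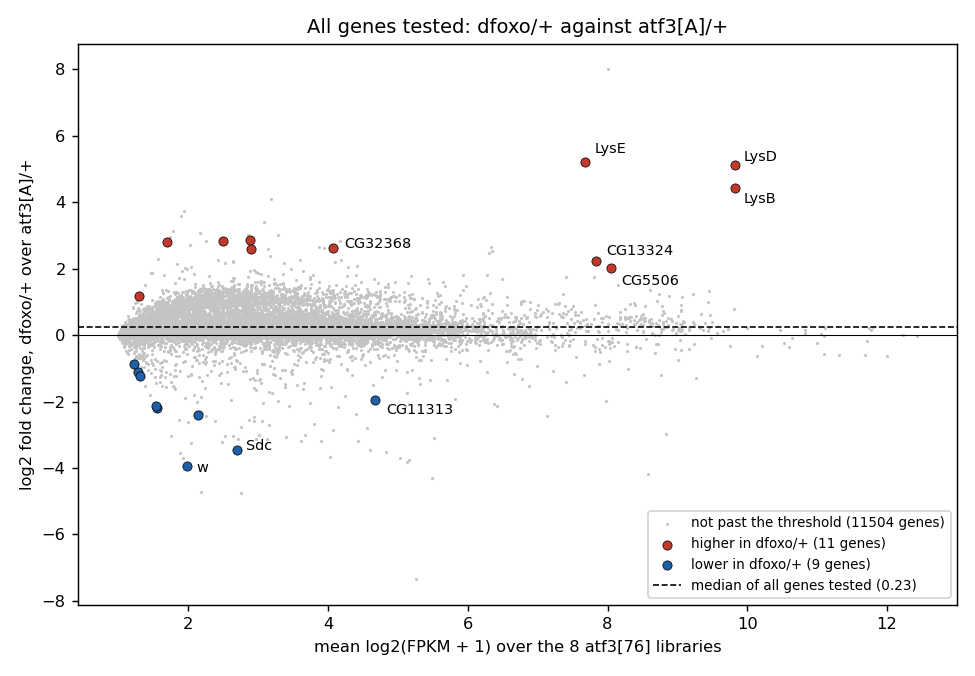
Log2 fold change of dfoxo/+ over atf3[A]/+ (y axis, on the log2(FPKM + 1) scale) against the mean log2(FPKM + 1) over 8 libraries (x axis) for every gene tested. The 11 genes called higher in dfoxo/+ are red, the 9 called lower are blue, and the dashed line is the median of 0.23; for a gene at the floor of 1 in a genotype the height on the y axis is not a fold.

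The targeted genes came first as a check of the labels. Atf3, listed as A3-3 (X, 1136772 to 1168682, build BDGP R5/dm3 here and below), had 13.1 and 13.5 FPKM in dfoxo/+ and 9.51 and 12.8 FPKM in atf3[A]/+. The log2 difference of 0.25 ± 0.39 (SE) did not pass the test (limma, adjusted p = 0.803), and its sign turned with centring or quantile normalization. The forkhead gene foxo (3R, 9882673 to 9913698) had 8.69 and 6.86 FPKM in dfoxo/+, which carries 1 copy of a foxo allele, and 9.56 and 9.35 FPKM in atf3[A]/+. Here too the difference, -0.26 ± 0.31 on the log2 scale with a 95% interval of -1.01 to 0.49, did not pass (adjusted p = 0.724). Rel (3R, 4869899 to 4873699), which overlaps another gene, had 21.1 and 20.6 FPKM in dfoxo/+ and 19.2 and 15.7 FPKM in atf3[A]/+ (0.25 ± 0.18, adjusted p = 0.526), and its sign turned with centring. The marker gene y was listed at 1 in all of these libraries.

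The marker w (X, 2684631 to 2690499) encodes an ABC transporter for eye pigment precursors and separated the genotypes completely. It was listed at 1 in both dfoxo/+ libraries and stood at 33.7 and 26.3 FPKM in atf3[A]/+ (limma, adjusted p = 0.00166, given as a description only). It was at 1 in rel/+ and in atf3[76] as well, so of these genotypes atf3[A]/+ was the one with w above the floor, although its label too names the w marker. Its nearest neighbours on either side did not differ past the threshold: CG32795 had 27.0 and 28.9 FPKM in dfoxo/+ and 21.7 and 24.1 FPKM in atf3[A]/+, and CG3603 had 15.9 and 20.7 FPKM in dfoxo/+ and 17.2 and 17.4 FPKM in atf3[A]/+.

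Lysozymes cut the peptidoglycan of bacterial walls, and the fly has a cluster of them on 3L, several of which are made by the larval midgut as digestive enzymes. All 7 measured members were higher in both dfoxo/+ libraries than in both atf3[A]/+ libraries, as were 46.5% of all genes tested. Of the 7, 3 rose past the test, against 0.0955% of all genes. The list's median log2 fold change was 4.43, against 0.23 for all genes. LysE (3L, 1212826 to 1213406) had 1086 and 1723 FPKM in dfoxo/+ and 39.0 and 33.1 FPKM in atf3[A]/+. It rose 38.9-fold between the means, or by 5.21 ± 0.26 on the log2 scale (SE, n = 2 libraries each; limma, adjusted p = 0.00166). LysD (3L, 1210716 to 1211196) had 4527 and 6054 FPKM in dfoxo/+ and 172 and 128 FPKM in atf3[A]/+, a log2 fold change of 5.13 ± 0.35 (adjusted p = 0.00706). LysB (3L, 1207370 to 1207868) had 3706 and 5642 FPKM in dfoxo/+ and 212 and 211 FPKM in atf3[A]/+, a log2 fold change of 4.43 ± 0.35 (adjusted p = 0.0129). LysE passed without any of the 4 libraries of this pair, while LysB (adjusted p = 0.0810 without atf3[A]/+ replicate 1 and 0.106 without replicate 2) and LysD (0.0658 and 0.0708) did not pass without either atf3[A]/+ library.

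The other 4 lysozymes pointed the same way without passing. LysC had 2058 and 2143 FPKM in dfoxo/+, but 32.7 FPKM in one atf3[A]/+ library and the floor of 1 in the other (adjusted p = 0.105). LysP had 9.95 and 9.05 FPKM in dfoxo/+ and 1.40 and 1 FPKM in atf3[A]/+, just outside the threshold (adjusted p = 0.0501). LysS had 795 and 439 FPKM in dfoxo/+ and 297 and 240 FPKM in atf3[A]/+, and LysX 41.9 and 37.8 FPKM in dfoxo/+ and 22.1 and 12.6 FPKM in atf3[A]/+. These are 2.30-fold for LysS and 2.29-fold for LysX between the means (adjusted p = 0.296 and 0.219). The size of the difference was thus graded within the cluster, from LysB, LysC, LysD and LysE in its middle to LysX and LysS at its ends. LysC and LysD overlap in position, LysE lies inside mwh, and these family members are close to each other in sequence, so the share of fragments given to each is uncertain while their sum is less so. Summed over the 7 genes, lysozyme transcripts came to 12223 and 16049 FPKM in dfoxo/+ and to 776 and 627 FPKM in atf3[A]/+, 20.2-fold between the means. In whole larvae, fewer cells of a type and less RNA per cell cannot be told apart.

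Other genotypes fell on either side of this gap. The summed lysozyme level was 14276 and 16064 FPKM in rel/+, within or just above the range of dfoxo/+, and 1811 and 1042 FPKM in atf3[76], much nearer to atf3[A]/+. LysS made up much of the atf3[76] sum, with 1350 and 600 FPKM there. Against atf3[A]/+ the single genes went different ways in atf3[76]. LysB, with 143 and 125 FPKM there, lay below both atf3[A]/+ libraries, while LysC, with 116 and 104 FPKM, and LysX, with 42.8 and 25.2 FPKM, lay above both. Genes between and beside the lysozymes did not share the difference: CG9119, next to LysB, had 19.4 and 29.8 FPKM in dfoxo/+ and 21.5 and 25.7 FPKM in atf3[A]/+. The host gene mwh, multiple wing hairs, had 4.31 and 7.40 FPKM in dfoxo/+ and 5.99 and 8.25 FPKM in atf3[A]/+. CG33965, just beyond LysS, had 16.1 and 19.7 FPKM in dfoxo/+ and 16.0 and 16.7 FPKM in atf3[A]/+.

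**Figure D2:**
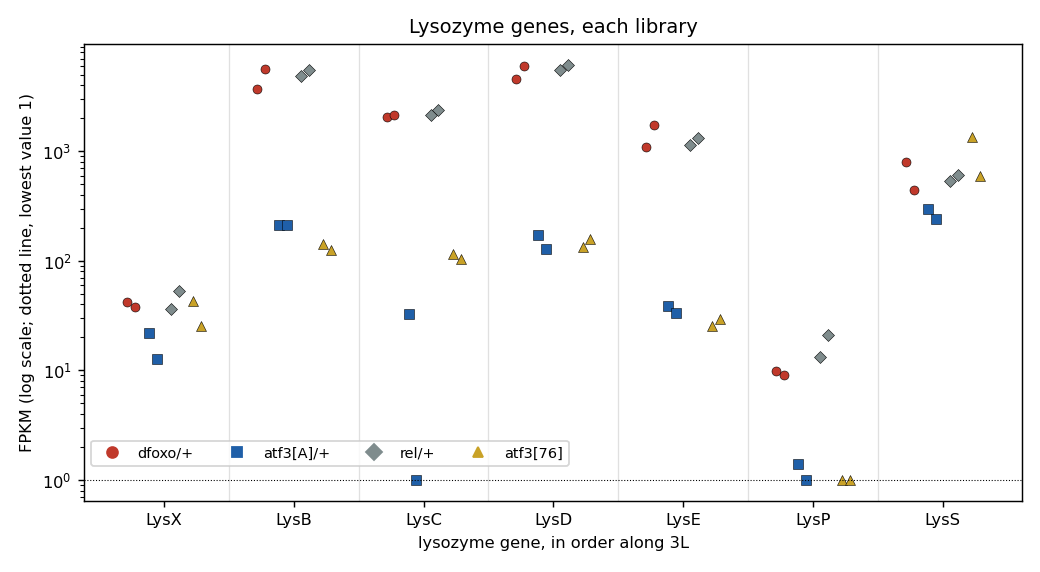
FPKM of the 7 lysozyme genes (y axis, log scale, dotted line at the floor of 1) in each library of dfoxo/+, atf3[A]/+, rel/+ and atf3[76], in order along 3L (x axis). For LysB, LysD and LysE the dfoxo/+ libraries lie at 1086 to 6054 FPKM and the atf3[A]/+ libraries at 33.1 to 212 FPKM, with rel/+ beside dfoxo/+ and atf3[76] beside atf3[A]/+.

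The remaining 8 genes called higher carry mostly CG numbers, with no role given here. CG13324 (2R, 8936646 to 8937123) had 286 and 327 FPKM in dfoxo/+ and 65.8 and 61.5 FPKM in atf3[A]/+, 4.81-fold between the means (log2 fold change 2.24 ± 0.22, limma, adjusted p = 0.0264). Its neighbour CG13323 had 431 and 478 FPKM in dfoxo/+ and 180 and 170 FPKM in atf3[A]/+, and missed the threshold (1.37 ± 0.24, adjusted p = 0.162). The 2 neighbours thus pointed the same way, and atf3[A]/+ was the lowest of the genotypes for both, since CG13324 stood at 317 and 274 FPKM in rel/+ and averaged 462 ± 98.6 FPKM (SD, n = 2) in atf3[76]. CG5506 (3L, 17876748 to 17877474), whose end overlaps CG7408, had 343 and 479 FPKM in dfoxo/+ and 95.8 and 104 FPKM in atf3[A]/+, 4.11-fold between the means (2.01 ± 0.23, adjusted p = 0.0442). It too was low in atf3[A]/+ and not in the others, with 316 and 336 FPKM in rel/+ and 347 and 384 FPKM in atf3[76].

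CG32368 (3L, 7908536 to 7908946), a long non-coding RNA in the current annotation, had 25.9 and 35.1 FPKM in dfoxo/+ and 4.80 and 3.33 FPKM in atf3[A]/+. It rose 7.51-fold between the means (2.64 ± 0.27, adjusted p = 0.0316). The other 5 were listed at 1 in both atf3[A]/+ libraries. CG11192 (2R, 16241610 to 16242558) stood at 15.8 and 11.9 FPKM in dfoxo/+ (adjusted p = 0.0156), CG17352 (3L, 8345454 to 8349396), now named Culd, at 14.6 and 12.2 FPKM (0.00829), and CG6686 (2L, 11984326 to 11988035), which overlaps CG16965, at 11.4 and 10.6 FPKM (0.0139). All 3 were above the floor in rel/+ and atf3[76] too. For CG17352, however, atf3[76] had 4.11 and 4.22 FPKM, nearer to atf3[A]/+ than to dfoxo/+. CG8136 (3R, 4547092 to 4548773), at 14.2 and 11.6 FPKM in dfoxo/+ (adjusted p = 0.00166), and CG42823, at 3.23 and 3.81 FPKM (0.0151), were instead at 1 in every library of atf3[A]/+, rel/+ and atf3[76]. In those dfoxo/+ was the genotype apart, so their spread comes from its 2 libraries and their p-values are a description only. Without dfoxo/+ replicate 1 adjusted p was 0.138 for CG13324, 0.103 for CG5506, 0.120 for CG32368, 0.120 for CG11192, 0.120 for CG6686 and 0.0584 for CG17352, so none of these passed there. CG42823 did not pass without either atf3[A]/+ library (0.0810 and 0.0874).

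CG11313 (3R, 26555558 to 26567010) was the one gene called lower that was above 1 in every library. It had 15.7 and 12.5 FPKM in dfoxo/+ and 52.9 and 60.5 FPKM in atf3[A]/+, 4.02-fold lower in dfoxo/+ between the means (log2 fold change -1.94 ± 0.20, limma, adjusted p = 0.0326). It stood at 16.6 and 19.1 FPKM in rel/+ and 29.0 and 22.0 FPKM in atf3[76], so that atf3[A]/+ was the highest of the genotypes. It did not pass without any of the 4 libraries of this pair (adjusted p from 0.0810 to 0.192). Sdc (2R, 17281121 to 17368680), which encodes the heparan sulfate proteoglycan Syndecan, stood at the floor in both dfoxo/+ libraries, with 20.8 and 21.0 FPKM in atf3[A]/+ (adjusted p = 0.00249). It was also at 1 in both atf3[76] libraries but at 21.0 and 17.7 FPKM in rel/+. Neither neighbour of Sdc separated the genotypes: Acox57D-d, a peroxisomal acyl-CoA oxidase gene, had 10.8 and 13.4 FPKM in dfoxo/+ and 9.40 and 12.2 FPKM in atf3[A]/+, and Sara had 10.6 and 7.68 FPKM in dfoxo/+ and 10.8 and 7.60 FPKM in atf3[A]/+.

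The other 6 genes called lower besides w were at the floor in dfoxo/+ and at or under 11.8 FPKM in atf3[A]/+. They were picked out only after their values were seen, and their p-values are a description only. Sep4, a septin of the cell cortex, had 4.01 and 3.39 FPKM in atf3[A]/+ (adjusted p = 0.0139), and the adult cuticle protein gene Acp65Aa had 2.45 and 2.83 FPKM (0.0402). CG14610, which overlaps the pseudogene CR42738, had 6.76 and 9.95 FPKM in atf3[A]/+ (0.0129). The small nucleolar RNA genes snoRNA:Psi18S-1086 and snoRNA:Me28S-U1230 lie inside other genes, so fragments of their hosts cannot be told apart from theirs. In atf3[A]/+ the first had 11.8 and 7.74 FPKM and the second 7.88 and 7.75 FPKM. Without dfoxo/+ replicate 1 adjusted p was 0.103 for Sep4, 0.196 for Acp65Aa, 0.102 for CG14610 and 0.158 for snoRNA:Psi18S-1086, and none of these 4 passed without dfoxo/+ replicate 2 either.

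**Figure D3:**
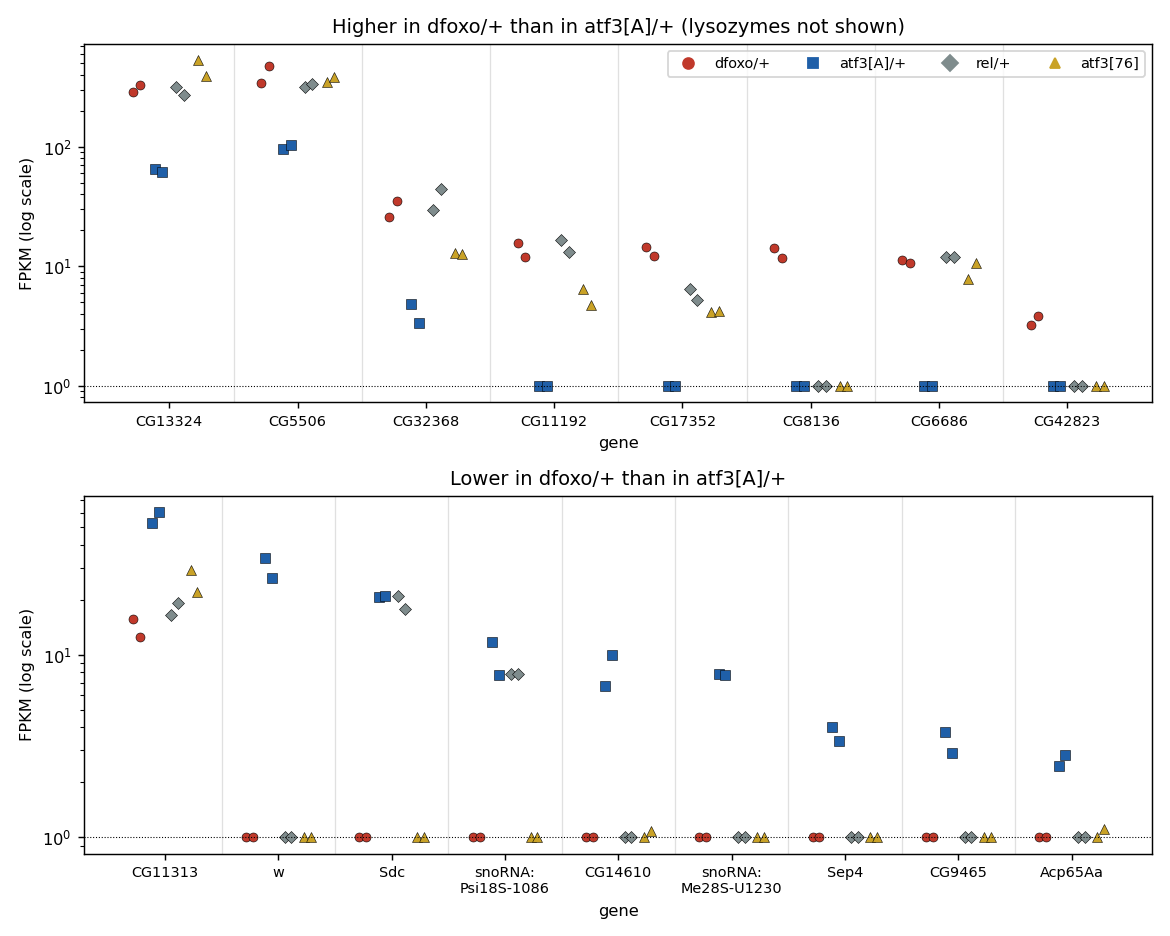
FPKM (y axis, log scale, dotted line at the floor of 1) of the 17 called genes that are not lysozymes, in each library of dfoxo/+, atf3[A]/+, rel/+ and atf3[76], with genes higher in dfoxo/+ above and genes lower in dfoxo/+ below. Points on the dotted line are values of 1, which 13 of these genes had in both libraries of dfoxo/+ or of atf3[A]/+.

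The sixth was CG9465 (2L, 8769174 to 8772344), named LManIV in the current annotation. It belongs to a run of 4 adjacent genes for lysosomal alpha-mannosidases, enzymes that trim mannose from glycoproteins. CG9465 was at the floor in both dfoxo/+ libraries, while atf3[A]/+ had 3.78 and 2.89 FPKM (limma, adjusted p = 0.0386; 0.196 without dfoxo/+ replicate 1). CG9465 was also at 1 in rel/+ and atf3[76], so its spread comes from the atf3[A]/+ libraries alone and its p-value is a description only. The rest of the run was also lower in both dfoxo/+ libraries without passing. CG9463 was at 1 in dfoxo/+ and at 21.7 and 14.6 FPKM in atf3[A]/+. CG9466 had 6.60 and 4.77 FPKM in dfoxo/+ and 41.5 and 41.2 FPKM in atf3[A]/+, 7.28-fold lower between the means (adjusted p = 0.218). CG9468 had 12.9 and 8.30 FPKM in dfoxo/+ and 59.6 and 56.8 FPKM in atf3[A]/+, 5.50-fold lower (adjusted p = 0.166). In the 2 genotypes of this pair the values of CG9466 and CG9468 were close within a genotype and far apart between them. When these 4 libraries were fitted alone, CG9466 and CG9468 passed (limma, adjusted p = 0.0373 and 0.0475), while CG9465 did not (0.132). That fit leaves out rel/+ and atf3[76] and so does not count the spread of these genes there. CG9463 was also under the threshold in it (0.0453). With CG9463 at 1 in both dfoxo/+ libraries, its spread in that fit comes from the atf3[A]/+ libraries alone. Its p-value is therefore a description only. The genes on either side of the run, CG12438 and CG42710, were instead higher in both dfoxo/+ libraries.

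By position, 12 of the 20 called genes lay on 3L or 3R, the arms of the chromosome on which the labels write dfoxo[25J13] and atf3[A], against 44.1% of the genes tested. Chromosome arm 3L held 8 of them, 3 being lysozymes, and 3R held 4. None of the 184 tested genes within 1 Mb of foxo was called. No test was made of these shares.

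The levels of the called genes in rel/+ and atf3[76] were compared with the pair on the log2 scale, by the nearer mean. For 5 of the 11 genes called higher and 7 of the 9 called lower, both other genotypes lay nearer to dfoxo/+. For 4 called higher, LysB, LysD, LysE and CG17352, rel/+ lay nearer to dfoxo/+ and atf3[76] nearer to atf3[A]/+. CG17352 differed from the lysozymes in that both other genotypes lay between the pair. It had 6.45 and 5.22 FPKM in rel/+ and 4.11 and 4.22 FPKM in atf3[76]. In dfoxo/+ it had 14.6 and 12.2 FPKM and in atf3[A]/+ it was at the floor, so its sides rest on where the floor lies. For CG8136 and CG42823 both lay with atf3[A]/+, with these genotypes all at the floor. For Sdc and snoRNA:Psi18S-1086 rel/+ lay with atf3[A]/+, and atf3[76] lay at the floor with dfoxo/+.

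Beyond the called genes, lists of genes by pathway and tissue were described by how many members had both dfoxo/+ libraries above, or both below, both atf3[A]/+ libraries, and by their median. Each count is to be set against the shares over all genes tested, 46.5% above and 4.26% below. No member outside the lysozyme list passed the test apart from Acp65Aa, so the lists below carry values, not calls. Among the sets of at least 7 tested genes, medians ran from 4.43 for lysozymes and 1.13 for testis genes to -0.96 for Turandot peptides. That last median is the value of TotB, which was at 1 in both dfoxo/+ libraries, so it is not a fold.

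**Figure D4:**
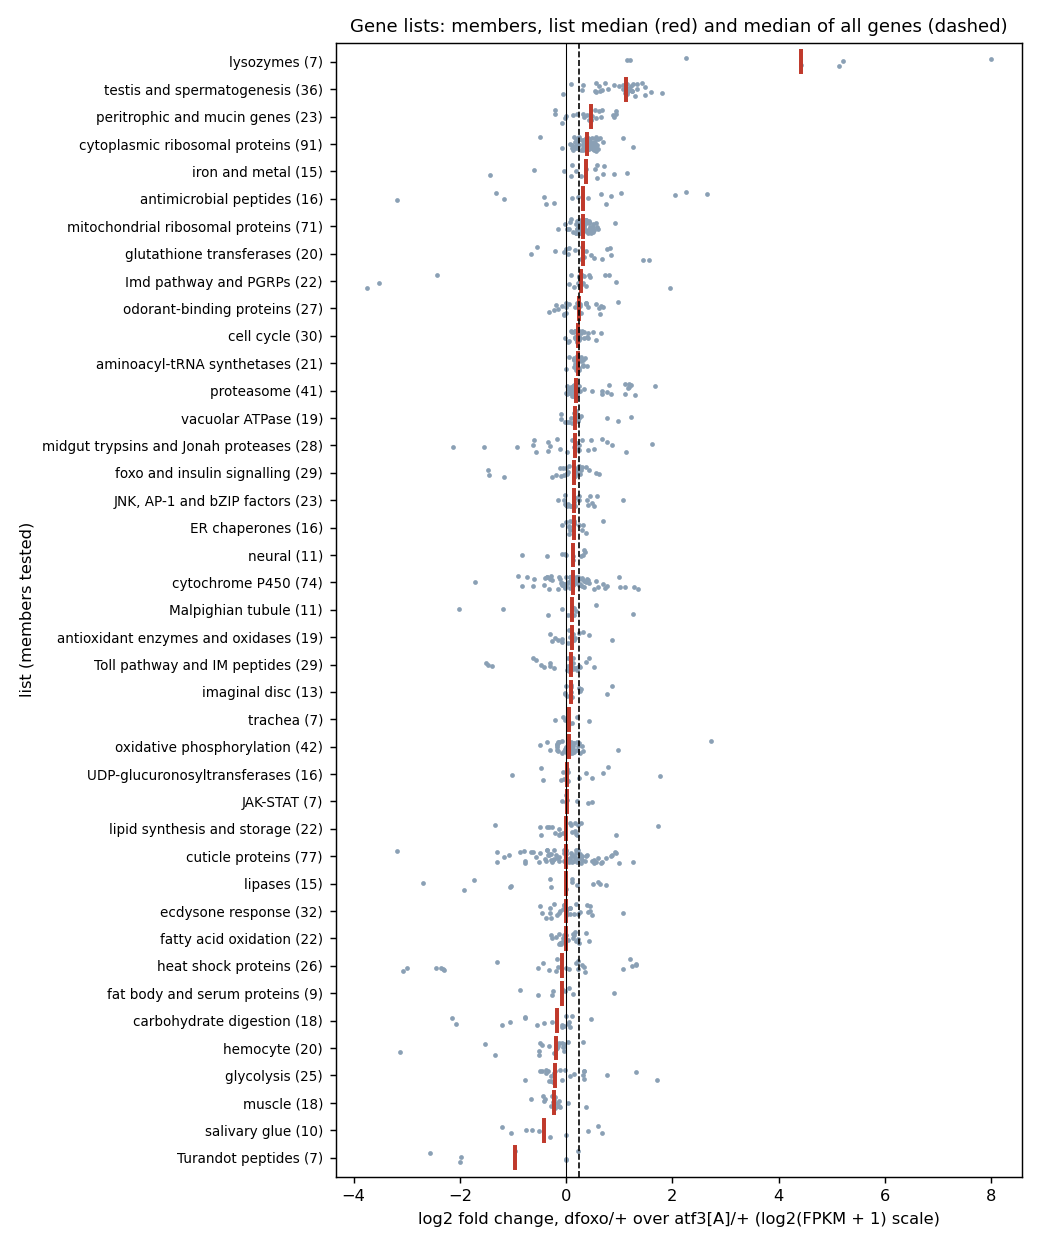
Log2 fold change of dfoxo/+ over atf3[A]/+ (x axis, on the log2(FPKM + 1) scale) for the members of each list with at least 7 tested genes (y axis, number tested in parentheses), with the list median in red and the median of all genes, 0.23, dashed. Lysozymes (4.43) and testis genes (1.13) lie at the upper end and Turandot peptides (-0.96) at the lower end. The Turandot median is that of TotB, at the floor in both dfoxo/+ libraries, and is not a fold.

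Peptidoglycan recognition proteins with amidase activity degrade the bacterial fragments that trigger the Imd pathway. The 3 secreted PGRP-SC genes, which lie together on 2R and are active in the gut, had the lowest fold changes among the 22 Imd pathway and recognition genes tested. PGRP-SC2 had 40.1 and 55.9 FPKM in dfoxo/+ and 259 and 257 FPKM in atf3[A]/+, 5.38-fold lower in dfoxo/+ between the means (-2.42 ± 0.45 on the log2 scale, limma, adjusted p = 0.176). PGRP-SC1a had 3.47 and 28.8 FPKM in dfoxo/+ and 124 and 191 FPKM in atf3[A]/+, and PGRP-SC1b 3.63 and 23.2 FPKM in dfoxo/+ and 96.7 and 148 FPKM in atf3[A]/+ (adjusted p = 0.217 each). When the 4 libraries of the pair were fitted alone PGRP-SC2 passed (limma, adjusted p = 0.0397) and the SC1 genes did not. That fit leaves out the genotypes where PGRP-SC2 varied more, at 111 and 218 FPKM in rel/+ and 285 and 133 FPKM in atf3[76]. In the other direction, PGRP-SB1, another secreted amidase, had 16.9 and 7.75 FPKM in dfoxo/+ and 2.64 and 1.90 FPKM in atf3[A]/+ (adjusted p = 0.219). The Imd inhibitor pirk had 22.3 and 30.5 FPKM in dfoxo/+ and 11.4 and 15.1 FPKM in atf3[A]/+ (adjusted p = 0.219). For the whole list, 13 of 22 members were above and 3, the PGRP-SC genes, below, against 46.5% and 4.26% of all genes. The median of 0.28 was close to that of all genes. Receptors and signalling proteins of the pathway, such as PGRP-LE, imd, Tak1 and Dredd, had log2 fold changes of 0.24 to 0.38.

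Antimicrobial peptides showed no common direction, with 5 of 16 above, 2 below and a median of 0.32, against 46.5% above and 4.26% below over all genes. The 3 members with the highest mean were Drs, Mtk and DptB. Drs, Drosomycin, an antifungal peptide of the Toll response, had 114 and 19.4 FPKM in dfoxo/+ and 186 and 77.6 FPKM in atf3[A]/+. Mtk, Metchnikowin, had 60.5 and 11.4 FPKM in dfoxo/+ and 15.7 and 9.91 FPKM in atf3[A]/+, so its dfoxo/+ libraries differed more from each other than the genotypes did, and its sign turned without dfoxo/+ replicate 1. DptB, a Diptericin under Imd control, had 46.7 and 12.5 FPKM in dfoxo/+ and 1.296 and 6.14 FPKM in atf3[A]/+ (adjusted p = 0.270). A Drosomycin-like gene, dro2, had 3.62 and 1 FPKM in dfoxo/+ and 28.4 and 25.0 FPKM in atf3[A]/+ (adjusted p = 0.129).

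Turandot peptides are secreted from the fat body under stress and infection, through JAK-STAT and other signals. TotA had 171 and 159 FPKM in dfoxo/+ and 545 and 778 FPKM in atf3[A]/+, 4.01-fold lower in dfoxo/+ between the means (-1.98 ± 0.61, limma, adjusted p = 0.221). TotC had 8.06 and 3.79 FPKM in dfoxo/+ and 22.9 and 27.9 FPKM in atf3[A]/+ (adjusted p = 0.228). Of the 7 tested Turandot genes 4 were below and none above, against 4.26% below and 46.5% above over all genes. Among those 4, TotB was at the floor in both dfoxo/+ libraries and Victoria in 1 of them. TotM and TotZ sat at the floor in this pair. TotA also varied within atf3[76], at 126 and 459 FPKM. Heat-inducible Hsp70 genes, which encode chaperones, differed in the same direction: Hsp70Ab had 7.07 and 3.80 FPKM in dfoxo/+ and 48.3 and 54.1 FPKM in atf3[A]/+ (adjusted p = 0.262). A single rel/+ library reached 76.3 FPKM while the other stood at 3.61 FPKM, so the level of these near-identical copies varied as much within a genotype as between them. In the fit of the 4 libraries alone Hsp70Ab and Hsp70Aa passed (adjusted p = 0.0453 and 0.0499).

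Enzymes of carbohydrate digestion, midgut proteases and lipases each included members lower in dfoxo/+, unlike the digestive lysozymes. No test was made between these classes. None of 18 genes for carbohydrate digestion and sugar transport was above and 9 were below, against 46.5% and 4.26% of all genes, and their median was -0.17 (-0.51 with centring). The amylases break down starch, and Amy-d had 41.1 and 31.0 FPKM in dfoxo/+ and 240 and 108 FPKM in atf3[A]/+, 4.83-fold lower in dfoxo/+ between the means (-2.14 ± 0.40, limma, adjusted p = 0.176). Amy-p, its near-identical copy, had 42.3 and 28.9 FPKM in dfoxo/+ and 224 and 99.5 FPKM in atf3[A]/+ (adjusted p = 0.190). The maltase LvpH, now Mal-A1, had 21.2 and 20.8 FPKM in dfoxo/+ and 42.5 and 46.9 FPKM in atf3[A]/+ (adjusted p = 0.217). The glucosidase gene tobi, a known target of insulin and glucagon-like signals, had 5.60 and 4.27 FPKM in dfoxo/+ and 12.8 and 11.7 FPKM in atf3[A]/+ (adjusted p = 0.199).

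Trypsins and Jonah proteases of the midgut went both ways, with 11 of 28 above, 9 below and a median of 0.16. Among the 3 most abundant, the trypsin deltaTry had 3135 and 3378 FPKM in dfoxo/+ and 2615 and 3200 FPKM in atf3[A]/+, so the libraries of the genotypes overlapped, and the sign of the difference turned with centring. Jon99Ci had 18.9 and 12.8 FPKM in dfoxo/+ and 78.8 and 64.7 FPKM in atf3[A]/+, 4.52-fold lower in dfoxo/+ and just outside the threshold (-2.13 ± 0.26, limma, adjusted p = 0.0576). Jon25Bi had 62.1 and 59.7 FPKM in dfoxo/+ and 178 and 181 FPKM in atf3[A]/+ (adjusted p = 0.219). Of 15 lipase genes 3 were above and 5 below, at a median of 0.00. The lower ones included the lipase-like gene CG6295, which had 28.5 and 25.5 FPKM in dfoxo/+ and 107 and 102 FPKM in atf3[A]/+ (limma, adjusted p = 0.124). It passed in the fit of the 4 libraries alone (0.0314), which leaves out rel/+, where it had 29.5 and 57.7 FPKM, and atf3[76], with 80.8 and 77.0 FPKM. Its neighbour CG6296 was instead higher, with 155 and 216 FPKM in dfoxo/+ and 104 and 132 FPKM in atf3[A]/+ (limma, adjusted p = 0.288). Proteins of the peritrophic matrix, the chitin lining of the gut, and mucins had 13 of 23 above and 1 below, shares near the 46.5% and 4.26% of all genes, with a median of 0.46. After centring the median was 0.12. The member with the highest mean was Peritrophin-15a, at 706 and 906 FPKM in dfoxo/+ and 463 and 582 FPKM in atf3[A]/+ (adjusted p = 0.437).

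**Figure D5:**
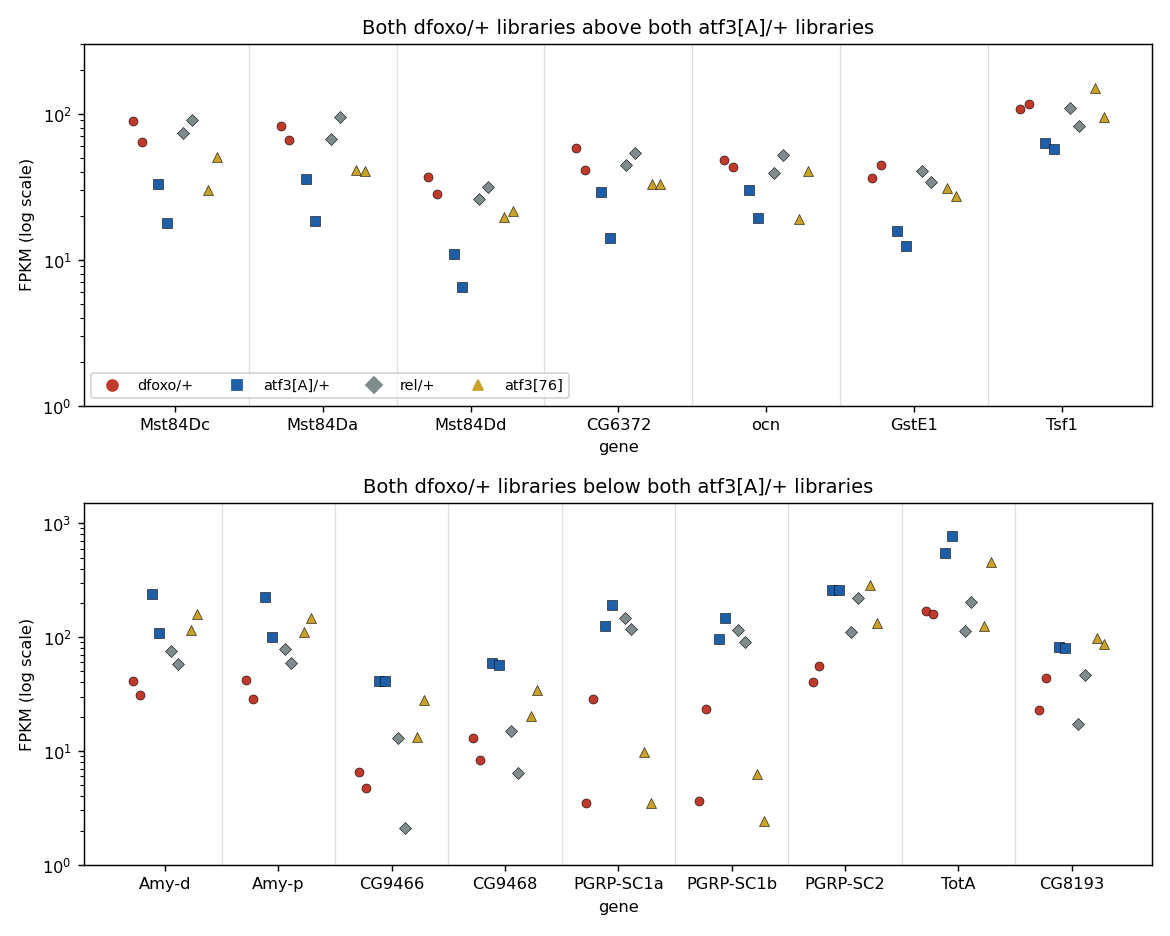
FPKM (y axis, log scale) of members of the testis, glutathione transferase and iron lists above and of the digestive, recognition, Turandot and hemocyte lists below, in each library of dfoxo/+, atf3[A]/+, rel/+ and atf3[76]. For the members shown of the first lists both dfoxo/+ libraries lie above both atf3[A]/+ libraries and for those of the others below them. They were picked from their lists, in which not every member went the same way. None of these genes passed the test over all genes.

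Testis genes formed the list with the highest median after the lysozymes. Male larvae carry a testis with growing spermatocytes, and the list holds genes for sperm proteins and spermatocyte factors. Of 36 tested members 34 were above and 1 below, the median log2 fold change was 1.13, and 24 were higher without adjustment at p under 0.05, but none passed over all genes. Over all genes tested 46.5% were above, 4.26% below and 15.7% higher without adjustment. The median was 0.79 with centring and 0.87 with quantile normalization. Mst84Dc, a male-specific sperm flagellum protein gene, had 89.1 and 63.9 FPKM in dfoxo/+ and 33.0 and 17.8 FPKM in atf3[A]/+, 3.01-fold between the means (1.60 ± 0.37, limma, adjusted p = 0.217). Mst84Dd had 36.6 and 28.2 FPKM in dfoxo/+ and 10.9 and 6.53 FPKM in atf3[A]/+, 3.71-fold (adjusted p = 0.105). CG6372, now S-Lap1, a leucyl aminopeptidase abundant in sperm, had 58.1 and 41.3 FPKM in dfoxo/+ and 29.2 and 14.0 FPKM in atf3[A]/+ (adjusted p = 0.219). The testis beta-tubulin betaTub85D had 39.0 and 31.2 FPKM in dfoxo/+ and 21.6 and 10.2 FPKM in atf3[A]/+ (adjusted p = 0.219).

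Summed over the list, testis transcripts came to 990 and 779 FPKM in dfoxo/+, 504 and 273 FPKM in atf3[A]/+, 806 and 983 FPKM in rel/+ and 474 and 625 FPKM in atf3[76]. In both dfoxo/+ and atf3[A]/+ replicate 1 was the higher, as it was for the median FPKM of all genes. The 3 testis forms of housekeeping proteins given next were picked out after their values were seen. The proteasome subunit Prosalpha6T had 8.58 and 7.57 FPKM in dfoxo/+ and 4.78 and 1.83 FPKM in atf3[A]/+, while the median of the 41 proteasome genes was 0.18. The hexokinase Hex-t2 had 9.88 and 8.74 FPKM in dfoxo/+ and 4.78 and 1.93 FPKM in atf3[A]/+, and the mitochondrial chaperonin Hsp60B, needed for spermatogenesis, had 18.0 and 13.4 FPKM in dfoxo/+ and 8.90 and 3.49 FPKM in atf3[A]/+. The part of testis content in the overall shift was not tested.

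Markers of other tissues had medians nearer to 0. Muscle genes had 1 of 18 above and 7 below with a median of -0.22, and hemocyte genes 1 of 20 above and 9 below with a median of -0.18. Shares over all genes were 46.5% above and 4.26% below. Among the hemocyte genes, the crystal cell prophenoloxidase CG8193, now PPO2, had 22.9 and 43.6 FPKM in dfoxo/+ and 82.4 and 80.9 FPKM in atf3[A]/+ (limma, adjusted p = 0.244). Pxn, peroxidasin, was listed at 1 in dfoxo/+ and at 18.8 and 14.3 FPKM in atf3[A]/+, yet it was also at 1 in one of the 2 atf3[76] libraries and at 18.3 FPKM in the other. Salivary glue genes summed to 4614 and 1768 FPKM in dfoxo/+ and 6821 and 2615 FPKM in atf3[A]/+, so replicates differed more than genotypes. Fat body and serum protein genes summed to 8399 and 8955 FPKM in dfoxo/+ and 9960 and 8307 FPKM in atf3[A]/+. Of 18 genes on the list named female-specific 2, Sxl and Cp15, were above 1 in any of the 8 libraries. They summed to at most 14.3 FPKM in a library, 12.8 FPKM of it from Sxl. A gene-level value does not tell the transcript forms of Sxl apart, so it is not read as a female signal.

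Metabolic lists had medians below the 0.23 of all genes. Glycolytic genes had 5 of 25 above and 13 below, against 46.5% and 4.26% of all genes, with a median of -0.22. The lactate dehydrogenase gene ImpL3, now Ldh, had 49.4 and 60.5 FPKM in dfoxo/+ and 83.7 and 105 FPKM in atf3[A]/+ (-0.77 ± 0.19, limma, adjusted p = 0.218). In foxo and insulin signalling, 7 of 29 were above and 2 below, with a median of 0.15. Thor, the translation inhibitor 4E-BP and a direct FOXO target in flies, had 175 and 115 FPKM in dfoxo/+ and 144 and 82.8 FPKM in atf3[A]/+ (0.38 ± 0.32, adjusted p = 0.597, with a 95% interval of -0.40 to 1.15). Rheb, a GTPase that activates TOR, had 29.9 and 31.1 FPKM in dfoxo/+ and 28.8 and 23.4 FPKM in atf3[A]/+. The secreted insulin antagonist ImpL2 had 32.0 and 27.7 FPKM in dfoxo/+ and 33.1 and 21.3 FPKM in atf3[A]/+. The sign of the difference turned for Thor without atf3[A]/+ replicate 2, for Rheb with centring and for ImpL2 under both and with quantile normalization.

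Lipid synthesis and storage genes had 3 of 22 above and 4 below and a median of 0.01. Their 3 most abundant members did not separate the genotypes past the test: the fatty acid desaturase desat1 had 183 and 212 FPKM in dfoxo/+ and 147 and 192 FPKM in atf3[A]/+, a difference whose sign turned with centring. Rfabg, now apolpp, the apolipoprotein of the main blood lipid carrier, had 85.5 and 109 FPKM in dfoxo/+ and 86.7 and 157 FPKM in atf3[A]/+. Lsd-1, a lipid droplet perilipin, had 53.9 and 38.1 FPKM in dfoxo/+ and 67.2 and 41.4 FPKM in atf3[A]/+. Leaving out a library of the pair turned the sign for Rfabg (0.15 without atf3[A]/+ replicate 2) and for Lsd-1 (0.03 without dfoxo/+ replicate 2 and 0.13 without atf3[A]/+ replicate 1).

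Detoxification and metal lists lay on both sides of the median of all genes. Glutathione transferases conjugate reactive compounds, and 10 of 20 were above, a share near the 46.5% of all genes, and 2 below, with a median of 0.31 (-0.02 with centring). GstE1 had 36.3 and 44.2 FPKM in dfoxo/+ and 15.8 and 12.4 FPKM in atf3[A]/+, 2.86-fold between the means (1.45 ± 0.19, limma, adjusted p = 0.0818). Cytochrome P450 genes had 28 of 74 above and 13 below, with a median of 0.12 (-0.21 with centring): Cyp6a23 had 85.3 and 79.1 FPKM in dfoxo/+ and 35.0 and 28.2 FPKM in atf3[A]/+ (adjusted p = 0.179), and Cyp28d2 had 5.06 and 6.31 FPKM in dfoxo/+ and 17.9 and 24.1 FPKM in atf3[A]/+ (adjusted p = 0.0760). Iron and metal genes had 10 of 15 above and 2 below, against 46.5% and 4.26% of all genes, with a median of 0.37 (0.04 with centring). Among them, the iron carrier Tsf1 had 108 and 117 FPKM in dfoxo/+ and 62.5 and 57.0 FPKM in atf3[A]/+ (0.91 ± 0.26, limma, adjusted p = 0.219). The metallothionein MtnA had 634 and 969 FPKM in dfoxo/+ and 532 and 518 FPKM in atf3[A]/+ (adjusted p = 0.420).

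Protein synthesis genes were above in most members, each by little, while over all genes 46.5% were above and 4.26% below. Of 91 cytoplasmic ribosomal protein genes 85 were above and 2 below, with a median of 0.39, and of 71 mitochondrial ones 61 were above and none below, with a median of 0.32. Aminoacyl-tRNA synthetase genes, which charge tRNAs, had 18 of 21 above and none below at a median of 0.22. After centring these medians were 0.05, -0.02 and -0.11, so their direction rests on the scale of the libraries.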

How the data were processed

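Per the labels, 10 libraries of total RNA from whole male larvae fall into 5 genotypes of 2 biological replicates, not said to be separate cultures, and p-values therefore reflect the variation between these libraries, which may be technical. The authors deposited FPKM values with a floor of 1 in 4 tables of 14148 records; per the submitters' processing notes TopHat 1.3.2, Cufflinks 1.1.0 and dm3 were used, whereas annotation, strandedness and depth were not stated there. The deposited score of fold change was not used. Tables were joined on position, identifier and symbol, and 94 symbols with several records kept the record with the highest mean. Overlapping genes (5223) are uncertain. With limma 3.58.1 in R 4.3.3, log2(FPKM + 1) of 8 libraries in 4 genotypes was fitted with a mean-variance trend and Benjamini-Hochberg adjustment, and the script was tested on simulated data. An exact permutation test of 2 against 2 cannot go below p = 0.333. Members, lists and tests were chosen with earlier results of these data known. The rule for named genes took A3-3, foxo, Rel, w, y and, of the called genes, the 15 largest changes each way with at least 10 FPKM in the higher genotype (13 genes). For lysozymes, antimicrobial peptides, insulin signalling and lipid genes it allowed the 3 highest members. It left short non-coding RNAs unnamed, and every other gene named here, these included, was chosen after its values were seen. Current names come from gene identifiers. The planned count of promoter motifs was not run here. The 4 libraries of the pair with the replicate number as a block were added after seeing the data.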

Additional observations from a re-analysis of the deposited data

How the results depend on the processing

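The count of called genes stayed between 17 and 30, against 20, for other pseudocounts, filters and scalings, for a fit of the 4 libraries of the pair alone and without the trend. The genes behind this count changed. Of the 20, 12 were called without a filter, 12 with a mean of at least 5 FPKM and 11 in the fit of the pair alone. With only genes above 1 FPKM in all 8 libraries, which drops every gene at the floor, 7 of the 20 were called. The count was 31 with all 10 libraries and 31 without atf3[76] replicate 1. Leaving out each library of the pair in turn gave 16 to 26 calls, of which 8 to 10 were among the 20. In these fits the log2 fold change of LysE lay between 4.88 and 5.54. The fits are no support for genes listed at 1 in whole genotypes. Among those were w, CG8136 and snoRNA:Me28S-U1230, at 1 in 3 of the 4 genotypes, and Sdc, at 1 in 2. Over every alternative the 20 genes kept their sign in all 339 values and lost the threshold in 88. That sign could hardly turn and is no support. The genes were chosen by this difference in the same libraries, and 13 of them were listed at 1 in both libraries of a genotype. Nothing on the labels ties libraries of the same number, so they were not taken as pairs. Same-numbered deviations correlated at 0.594 between dfoxo/+ and atf3[A]/+ and between -0.475 and 0.222 for the other pairs of genotypes. With the replicate block 10 genes were called, all among the 20. With the block and only the 4 libraries, which leaves 1 residual degree of freedom and was added after seeing the data, 1544 were called, 1395 higher and 149 lower, among them 49 of the 65 genes that were followed singly and had not passed; the cause was not tested. Log2 fold changes turned their sign for 10 genes named without a call. With centring these were A3-3 (-0.087), Rel (-0.085), Rheb (-0.11), desat1 (-0.11), deltaTry (-0.17) and ImpL2 (-0.18), and with quantile normalization A3-3 (-0.022) and ImpL2 (-0.049). Leaving out each library of the pair gave -0.13 to 2.19 for Mtk, -0.017 to 0.77 for Thor, -0.15 to 0.47 for ImpL2, -0.70 to 0.15 for Rfabg and -0.56 to 0.13 for Lsd-1, which also turned at 0.031. The medians of 22 of 44 lists changed sign with centring and of 16 with quantile normalization. With 2 libraries a genotype and no read depth, precision is limited to the spread between libraries.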
